A study of Mus musculus with 15 samples.

Results

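The genes described here are 9 members of the nuclear receptor superfamily with recognised roles in pluripotent or early differentiating cells, followed over all 15 RNA-seq libraries of a pair of OCT4-depletion time courses. *Esrrb*, *Esrra*, *Nr0b1*, *Nr5a2*, *Nr6a1*, *Rarg*, *Rxra*, *Nr2f1* and *Nr2f2* were chosen by name, out of 48709 genes counted and 49 nuclear receptor genes looked up among them. All 9 were found in every count table.

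The study removed OCT4, the transcription factor encoded by *Pou5f1* that holds embryonic stem cells (ESCs) in the pluripotent state, from mouse ESCs in either of 2 ways. CreER ESCs, of mixed 129SV C57BL/6 strain and genotype Oct4Fl/-; CAG CreER, have *Pou5f1* floxed on one chromosome and null on the other, and 500 nM 4-OHT (4-hydroxytamoxifen) activates the Cre recombinase that deletes it. They were sequenced untreated and after 12, 18, 24 and 36 h, with 2 replicates per time. O4AID ESCs, made in the ZHBT line of strain 129SV and of genotype Oct4-/- with a TetOFF Oct4 transgene, CAG Oct4AID and CAG Tir1, depend on an OCT4 protein fused to an auxin-inducible degron (AID). They were sequenced untreated and after 1.5, 6, 10 and 24 h of 500 µM IAA, the auxin that marks the fusion protein for degradation, with 1 library at each time. In O4AID the endogenous gene is null, the wild-type transgene is kept off by doxycycline in every sample, untreated ones included, and the fusion and the Tir1 adaptor are driven by the broadly active CAG promoter. CreER likewise carries its Cre under CAG, and by genotype the untreated CreER cells already had a single working *Pou5f1* allele. All cells were grown in N2B27 with PD03, Chiron and LIF. The labels do not say whether CreER replicates were separate cultures, so p-values measure the spread between those libraries, which may be technical. Every O4AID comparison sets a single library against another and has no replicate check. No library of either line received 4-OHT or IAA without the removal of OCT4. In these libraries the compound, the time in culture and OCT4 loss cannot be told apart.

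Nuclear receptors are transcription factors that bind DNA through zinc fingers and, in many cases, switch between coactivators and corepressors when a small lipophilic ligand enters their carboxy-terminal domain. Retinoic acid receptors such as RARγ pair with a retinoid X receptor such as RXRα on repeats of a short half-site, whereas orphan receptors such as ESRRB and NR5A2 can bind a half-site with an extended 5′ flank as monomers. In ESCs, ESRRB and NR5A2 belong to the network that sustains self-renewal, NR0B1 (DAX1) is an atypical member that lacks the zinc fingers and acts largely as a partner of other receptors, NR6A1 (GCNF) represses *Pou5f1* once cells differentiate, and NR2F1 and NR2F2 (COUP-TFI and COUP-TFII) are receptors of differentiating lineages.

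Promoter sequences are shown for *Nr0b1* and *Esrrb*, the members that fell furthest when OCT4 protein was degraded, and short windows for *Nr5a2* and *Rarg*, whose levels were lower in both lines. They are RefSeq sequence of GRCm38.p6, the build of the counts, read 5′ to 3′ on the strand of the gene and lying before the annotated start. Capitals mark the nuclear receptor half-site AGGTCA or its reverse complement TGACCT. The *Nr0b1* stretch is chrX:86191525-86191763 on the plus strand (239 bases), the *Esrrb* stretch is chr12:86360867-86361116 on the plus strand (250 bases), the *Nr5a2* window is chr1:136960495-136960524 on the minus strand and the *Rarg* window is chr15:102257730-102257759 on the minus strand.
Nr0b1: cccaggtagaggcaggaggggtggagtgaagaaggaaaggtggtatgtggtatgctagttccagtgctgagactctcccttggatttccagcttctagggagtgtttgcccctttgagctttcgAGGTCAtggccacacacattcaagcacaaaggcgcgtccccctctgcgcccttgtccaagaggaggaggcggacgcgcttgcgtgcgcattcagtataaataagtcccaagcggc
Esrrb: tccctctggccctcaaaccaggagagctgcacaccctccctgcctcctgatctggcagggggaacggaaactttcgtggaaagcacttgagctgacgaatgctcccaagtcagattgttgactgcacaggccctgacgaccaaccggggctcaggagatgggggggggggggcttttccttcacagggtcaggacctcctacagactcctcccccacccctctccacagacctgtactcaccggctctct
Nr5a2: atggtttacagcAGGTCAtacatgctggaa
Rarg: agcccaggacacTGACCTctgccagctctg

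The half-site began at -126 relative to the RefSeq start of *Nr0b1*, at -64 relative to that of *Nr5a2* and, on the opposite strand, at -225 relative to that of *Rarg*, while the *Esrrb* window held none. The RefSeq starts of *Nr0b1* and *Rarg* differ slightly from the gene bounds given below, which are those of the counts. All 9 genes matched the RefSeq table, with 15 start windows of 250 bases before and 50 after the start between them. The half-site was found on either strand in windows of 5 of the 9 genes, against 18.1% of 27025 genes. By window it was in 5 of the 15, against 16.3% of 32851. For *Rxra* and *Nr6a1* it lay at alternative starts inside the gene. The octamer ATGCAAAT, which OCT4 recognises, was in 0 of the 15 windows, against 1.74% of all 32851 windows, and the extended estrogen-related receptor site TCAAGGTCA, which contains the half-site, was in 0, against 0.423%. These are matches of letters in short windows and say nothing of binding.

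All libraries expressed the 6 ESC markers looked up. Depth was 21.7 to 30.8 M (mega) counted reads per CreER library and 40.5 to 48.7 M per O4AID library. The ESC markers summed to 2000 to 2030 counts per mega-count (CPM, scaled by TMM within each line) in untreated CreER and 1650 to 1720 CPM at 36 h, and to 3500 and 885 CPM at 0 and 24 h in O4AID. In CreER at 36 h 5 of the 6 were called lower and 1 higher, against 17.2% and 19.4% of all genes. The one called higher was *Nanog*, from 576 to 656 CPM (adjusted p = 0.000119, edgeR quasi-likelihood test). In O4AID all 6 were at least 2-fold lower at 24 h, against 2.8% of all genes. *Pou5f1* itself stood at 330 and 326 CPM in the untreated CreER libraries and at 115 and 127 CPM after 36 h, a log2 fold change of -1.43 (adjusted p = 4.15e-19, edgeR quasi-likelihood test, SE 0.045). In O4AID the protein and not the mRNA is the target, and the mRNA stood at 717, 816, 684, 670 and 601 CPM from 0 to 24 h. Markers of the trophectoderm, the extra-embryonic lineage that ESCs turn to without OCT4, summed to 27.3 to 29.1 CPM at 0 h and 109 to 112 CPM at 36 h in CreER and to 3.1 and 16.2 CPM at 0 and 24 h in O4AID. All 6 were called higher at 36 h in CreER, against 19.4% of all genes. In O4AID at 24 h 1 of the 6 was at least 2-fold higher, against 3.81%, and their median log2 change was 0.91. That gene was *Krt7*, from 0.448 to 7.72 CPM. *Elf5*, with at most 12 reads, was within counting error (0.07, -0.17 to 0.30). Primitive endoderm markers summed to 6.11 to 6.73 and 10.6 to 10.8 CPM in CreER and to 9.09 and 32 CPM in O4AID, where *Sox7* was at the floor of 3 reads or fewer. At 36 h in CreER, 5 of these were tested and 1 was called in each direction. *Gata6* went from 0.798 to 4.8 CPM (adjusted p = 6.91e-11, edgeR) and *Sox7* from 1.6 to 0.482 CPM (adjusted p = 0.000339, edgeR). In O4AID at 24 h, 2 were at least 2-fold higher (*Gata6* and *Pdgfra*) and 0 lower. Neural ectoderm, mesoderm and fibroblast markers summed to 46.9 to 77.4, 2.41 to 4.95 and 2.43 to 10.1 CPM over all libraries. *Nes* made up most of the neural sum, at 61 CPM in untreated CreER and 39.5 CPM in untreated O4AID. *Pax6* went from 11.1 to 3.42 CPM at 36 h in CreER (adjusted p = 3.09e-11, edgeR) and from 3.61 to 12.3 CPM at 24 h in O4AID. *Sox1* went the other way, from 3.32 to 5.54 CPM (adjusted p = 0.000267, edgeR) and from 8.45 to 1.78 CPM. The part of all these markers in the receptor changes was not tested, and in bulk RNA fewer cells of a type and less RNA per cell cannot be told apart.

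Before treatment the receptors were ordered differently in the 2 lines. Levels are compared between genes as transcripts per mega-transcript (TPM, computed from counts and gene length). In untreated CreER, *Esrrb* (117 and 102 TPM in replicates 1 and 2) and *Rarg* (115 and 100 TPM) stood highest and overlapped. *Nr5a2* (38.2 and 40.1 TPM) followed, then *Nr6a1* (36.4 and 34.3 TPM) and *Nr0b1* (35 and 34.8 TPM), whose ranges overlapped each other. *Esrra* stood at 9.38 and 9.52 TPM and *Rxra* at 8.36 and 8.35 TPM. *Nr2f1* and *Nr2f2* were at the edge of detection, with 2 and 3 reads and 4 and 3 reads.

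In untreated O4AID, *Esrrb* stood at 316 TPM, far above *Nr0b1* at 72.7 TPM and *Nr5a2* at 43.2 TPM. *Esrra* (18.2 TPM) and *Rarg* (17.6 TPM) differed by less than their counting error, and *Rxra* (14.4 TPM), *Nr6a1* (11.9 TPM), *Nr2f2* (1.18 TPM) and *Nr2f1* (0.225 TPM) came after them. *Rarg* was thus 6.1 times higher and *Nr6a1* 2.97 times higher per length in CreER, whereas *Esrrb* was 2.89 times and *Nr0b1* 2.08 times higher in O4AID, and *Nr5a2* was nearly level (1.1 times). On the scale of log2(CPM + 1), 5 of the 9 genes were at least 2-fold apart, with 32.2% of the 18602 genes compared being so. The lines differ in strain, transgenes and library, which cannot be told apart here.

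**Figure D1:**
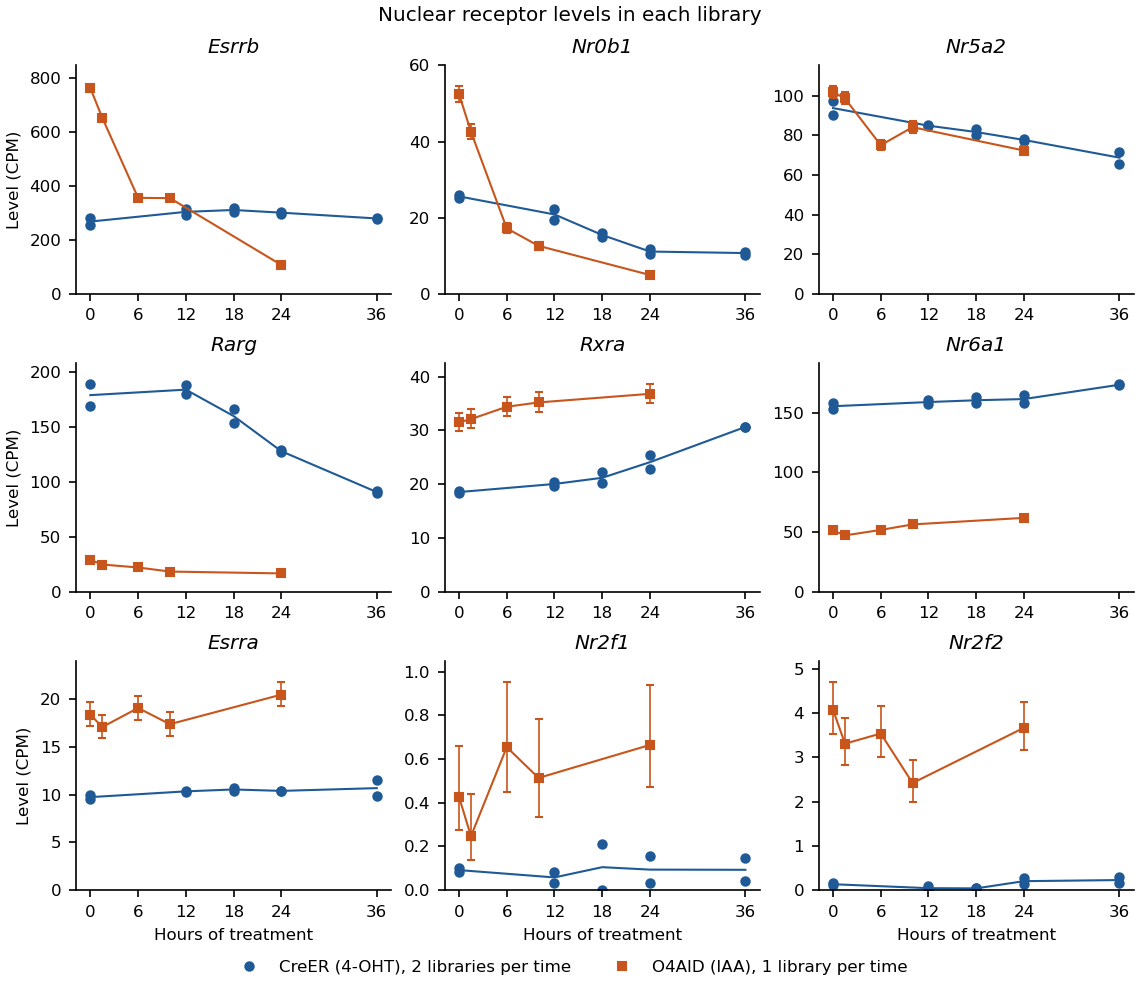
Level in CPM of each receptor gene (vertical axes, each from 0) against hours of treatment (horizontal axes), with CreER libraries as circles, O4AID libraries as squares with 95% counting intervals, and lines through the mean at each time. *Esrrb* fell from 763 to 107 CPM in O4AID while all 10 CreER libraries lay between 254 and 318 CPM, and *Nr0b1* was lower at the end than at 0 h in both lines.

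*Esrrb* took different courses in the 2 lines. Its gene (ENSMUSG00000021255) spans chromosome 12 from 86361117 to 86521628 on the forward strand of GRCm38/mm10, the build of all coordinates here. In O4AID it stood at 763 CPM at 0 h, 653 CPM at 1.5 h, 356 CPM at 6 h, 355 CPM at 10 h and 107 CPM at 24 h. Every treated library lay below the untreated one, and the 24 h library held 14.1% of the untreated level. The log2 change against 0 h was -0.22 after 1.5 h (95% counting interval -0.25 to -0.20), -1.10 after 6 h (-1.13 to -1.07) and -2.82 after 24 h (-2.86 to -2.78). The fall came in steps, since the change from 6 to 10 h was -0.003 (-0.036 to 0.030), within counting error, and that from 10 to 24 h was -1.72 (-1.76 to -1.67).

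In CreER the same gene stood at 282 and 254 CPM at 0 h, 314 and 294 CPM at 12 h, 318 and 304 CPM at 18 h, 305 and 297 CPM at 24 h and 277 and 282 CPM at 36 h. The libraries from 12 to 24 h all lay above both untreated ones, and those at 36 h overlapped them. *Esrrb* rose by a log2 fold change of 0.22 after 18 h (adjusted p = 0.00351, SE 0.047) and of 0.17 after 24 h (adjusted p = 0.0107, SE 0.047). At 36 h its log2 fold change was 0.07 (adjusted p = 0.251, SE 0.047), which took the opposite sign, -0.01, when libraries were scaled by total count. The 18 h call was lost without 0 h replicate 2 (0.14) or 18 h replicate 1, and the 24 h call without 0 h replicate 2 (0.09) or 24 h replicate 1. At 24 h, the hour of treatment both lines share, the change on the log2(CPM + 1) scale was 0.19 and 0.15 in the CreER replicates against the mean of the untreated pair, and -2.82 in O4AID. *Pou5f1* counts still stood at 41.9% of their untreated mean in CreER at that hour, and at 36.8% at 36 h. These counts cover all exons of the gene, and OCT4 protein was not measured in these libraries. The paper reports that OCT4 was lost more slowly after gene deletion than after IAA. The shared hour is therefore not the same time without OCT4 in both lines.

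*Esrra*, which encodes the related receptor ERRα, a regulator of mitochondrial genes, moved within a narrow range. It stood at 9.54 to 11.5 CPM over the 10 CreER libraries, with log2 fold changes from 0.09 to 0.14 at the 4 times and no call (adjusted p = 0.309 at 36 h and higher at earlier times). In O4AID it stood at 18.4, 17.1, 19.1, 17.4 and 20.5 CPM, and its log2 change at 24 h was 0.15 (0.02 to 0.27). Its gene (ENSMUSG00000024955) spans chromosome 19 from 6910977 to 6921813 on the minus strand and shares 2.9% of its exonic bases with *Trmt112* on the opposite strand, and the strand setting of the counting was not stated.

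*Nr0b1* fell in both lines. Its log2 change was the lowest of the members at 18, 24 and 36 h in CreER and at 6 and 10 h in O4AID, while at 24 h in O4AID its order with *Esrrb* turned with the pseudocount (-2.53 and -2.77 with CPM + 5). The gene (ENSMUSG00000025056) lies on chromosome X from 86191764 to 86195947 on the plus strand, just downstream of the half-site shown above. In O4AID it stood at 52.5, 42.6, 17.2, 12.6 and 4.94 CPM from 0 to 24 h. Each library lay below the one before it, with the last at 9.4% of the first. The log2 change was -0.30 after 1.5 h (-0.38 to -0.21), -1.56 after 6 h (-1.67 to -1.44), -1.98 after 10 h (-2.11 to -1.85) and -3.17 after 24 h (-3.33 to -3.01). Between 6 and 10 h, where *Esrrb* was level, *Nr0b1* changed by -0.43 (-0.58 to -0.27).

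In CreER *Nr0b1* stood at 25.3 and 25.9 CPM at 0 h, 22.3 and 19.4 CPM at 12 h, 15.9 and 15 CPM at 18 h, 10.4 and 11.8 CPM at 24 h and 10.3 and 11.1 CPM at 36 h. From 12 h on, both libraries of every time lay below both untreated ones. The log2 fold change was -0.73 after 18 h (adjusted p = 7.19e-07, SE 0.081), -1.21 after 24 h (adjusted p = 3.37e-11, SE 0.085) and -1.25 after 36 h (adjusted p = 7.22e-12, SE 0.089). Between 24 and 36 h it was -0.04 (adjusted p = 0.846, SE 0.1), so that no further change was detectable beyond the 24 h level, 43.3% of the untreated mean.

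*Nr5a2*, which encodes the receptor LRH-1, fell less. Its gene (ENSMUSG00000026398) spans chromosome 1 from 136842571 to 136960448 on the minus strand. In CreER it stood at 90.3 and 97.4 CPM at 0 h, 85.1 and 84.8 CPM at 12 h, 83.5 and 80 CPM at 18 h, 78.1 and 77.4 CPM at 24 h and 71.9 and 65.7 CPM at 36 h. The libraries of each treated time lay below both untreated ones. The log2 fold change was -0.20 after 18 h (adjusted p = 0.0135, SE 0.05), -0.27 after 24 h (adjusted p = 0.000253, SE 0.05) and -0.44 after 36 h (adjusted p = 1.33e-07, SE 0.052). The 18 h call was lost without 0 h replicate 2 or 18 h replicate 2, where it was -0.14 at its smallest. In O4AID it stood at 102, 98.7, 75.1, 84.2 and 72.4 CPM, lower at 6 h than at 10 h, and its log2 change at 24 h was -0.49 (-0.55 to -0.42). The 24 h level was 82.8% of the untreated one in CreER and 71.1% in O4AID.

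*Nr6a1*, the gene of GCNF, moved slightly upwards. Its gene (ENSMUSG00000063972) spans chromosome 2 from 38723370 to 38927688 on the minus strand. In CreER it stood at 158 and 153 CPM at 0 h, between 157 and 165 CPM from 12 to 24 h, and at 173 and 174 CPM at 36 h. It was called higher at 36 h (log2 fold change 0.17, adjusted p = 0.00153, SE 0.041) and at no earlier time, and under total-count scaling that call was lost (0.09, adjusted p = 0.148). In O4AID it stood at 51.5, 47.3, 51.9, 56.5 and 62 CPM, with a log2 change of 0.26 after 24 h (0.19 to 0.34).

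**Figure D2:**
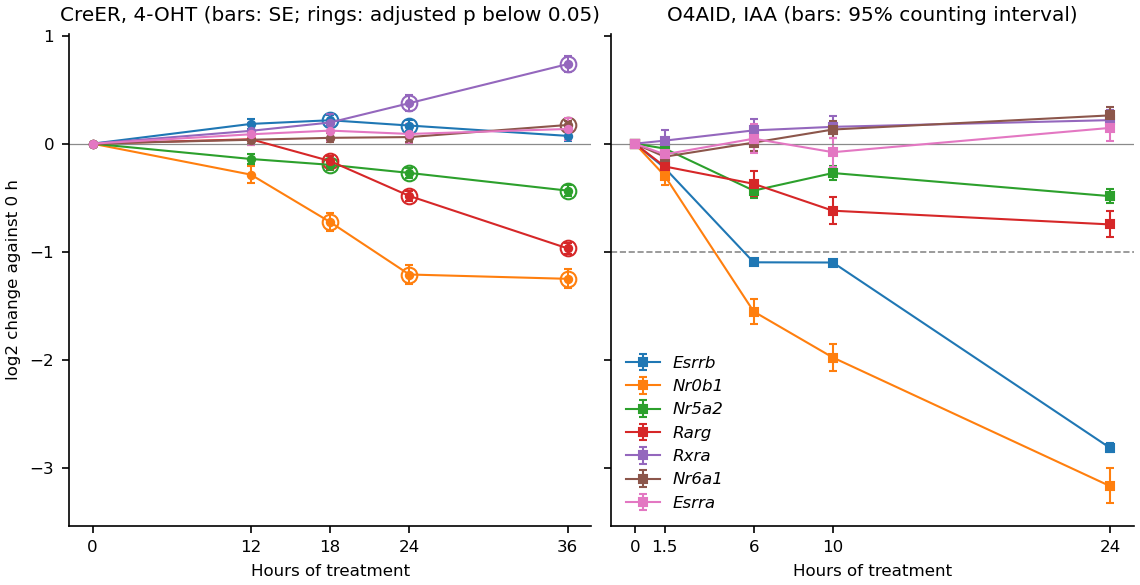
Log2 change of 7 receptor genes against the untreated libraries of the same line (vertical axis) over hours of treatment (horizontal axes), with CreER fold changes and SE on the left and O4AID changes and 95% counting intervals on the right. Rings mark CreER changes with an adjusted p under 0.05 and the dashed line a 2-fold fall. *Esrrb* ended at 0.07 in CreER and at -2.82 in O4AID, and *Rxra* rose to 0.74 in CreER while *Rarg* fell to -0.97.

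The 2 retinoid receptors among the members moved in opposite directions in CreER. Their relatives did not follow the same split at 36 h. *Rarb* rose by 1.82 on the log2 scale (adjusted p = 2.88e-05, edgeR), and *Rara* fell by 0.28 (adjusted p = 0.00835). *Rxrg* fell by 1.125 (adjusted p = 0.0292), and *Rxrb* changed by -0.01 (adjusted p = 0.915). *Rarb* and *Rxrg* had at most 42 and 31 reads in any CreER library. *Rarg* (ENSMUSG00000001288; chromosome 15 from 102234938 to 102257517, minus strand), the gene of RARγ, stood at 189 and 169 CPM at 0 h, 188 and 180 CPM at 12 h, 166 and 154 CPM at 18 h, 129 and 127 CPM at 24 h and 90.1 and 91.5 CPM at 36 h. It overlapped the untreated level at 12 h and lay below it from 18 h. The log2 fold change was -0.16 after 18 h (adjusted p = 0.0402, SE 0.049), -0.48 after 24 h (adjusted p = 4.27e-08, SE 0.05) and -0.97 after 36 h (adjusted p = 3.49e-14, SE 0.052). The 18 h call was lost in 8 of 17 alternatives, which were DESeq2, a fit of the 4 libraries compared, and the fits without 0 h replicate 1, 18 h replicate 2 or any of the 12 h and 24 h replicates. *Rarg* was still falling after *Nr0b1* had levelled, by 0.49 on the log2 scale between 24 and 36 h (adjusted p = 2e-07, SE 0.052).

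*Rxra* (ENSMUSG00000015846; chromosome 2 from 27676440 to 27762957, plus strand), the gene of its dimer partner RXRα, stood at 18.3 and 18.8 CPM at 0 h, 20.5 and 19.6 CPM at 12 h, 22.2 and 20.2 CPM at 18 h, 22.8 and 25.4 CPM at 24 h and 30.7 and 30.6 CPM at 36 h. Every treated library lay above both untreated ones. The rise was called at 24 h (log2 fold change 0.38, adjusted p = 0.000514, SE 0.074) and 36 h (0.74, adjusted p = 6.46e-09, SE 0.074), and again between 24 and 36 h (0.36, adjusted p = 0.000688, SE 0.071). Per length, the mean levels of *Rarg* and *Rxra* were 108 and 8.35 TPM at 0 h and 49.4 and 12.5 TPM at 36 h.

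In O4AID the same 2 genes had changes of the same signs. *Rarg* stood at 29, 24.9, 22.2, 18.5 and 16.8 CPM, each library below the one before, with a log2 change of -0.75 after 24 h (-0.87 to -0.63). *Rxra* stood at 31.5, 32.1, 34.4, 35.2 and 36.8 CPM, with 0.22 after 24 h (0.12 to 0.31). The 24 h CreER values on the same log2(CPM + 1) scale were -0.48 for *Rarg* and 0.36 for *Rxra*, and the difference between the lines was not tested.

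*Nr2f1* and *Nr2f2* gave too few reads in CreER to be tested, with at most 6 and 7 reads in any of its 10 libraries, where 3 reads correspond to 0.0976 to 0.145 CPM. In O4AID *Nr2f2* held 191, 148, 146, 99 and 177 reads from 0 to 24 h, or 4.08, 3.31, 3.54, 2.42 and 3.67 CPM. Its log2 change was -0.57 after 10 h (-0.83 to -0.31) and -0.12 after 24 h (-0.35 to 0.11), so that the lowest library was that of 10 h. *Nr2f1* held 20, 11, 27, 21 and 32 reads in O4AID, and its log2 change at 24 h, 0.22 (-0.06 to 0.49), was within counting error. Of the exonic bases, 7.5% of *Nr2f2* and 2.6% of *Nr2f1* are shared with a gene on the opposite strand.

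Counted over the 7 receptor genes tested in CreER, 0 were called at 12 h by edgeR, where 0.395% of the 18969 genes tested were called. At an unadjusted p under 0.05, 3 of the 7 passed (*Esrrb*, *Nr0b1* and *Nr5a2*), and DESeq2 likewise called 0 with 3 under that unadjusted p. At 18 h 4 were called (*Nr0b1*, *Nr5a2* and *Rarg* lower, *Esrrb* higher) against 8.52% of all genes, and the count was 2 without 0 h replicate 2 or 18 h replicate 2. At 24 h 5 were called (*Rxra* higher in addition) against 21.6%. At 36 h 5 were called, with *Nr6a1* in place of *Esrrb*, against 36.6%. Of these 3 were lower and 2 higher, with 17.2% of all genes lower and 19.4% higher, or 3262 and 3686 genes, which became 4802 and 2696 under total-count scaling. From 24 to 36 h 3 were called (*Rarg* and *Nr5a2* lower, *Rxra* higher) against 14.7%, and *Nr5a2* was lost there with DESeq2 and without 12 h replicate 2, either 24 h replicate or 36 h replicate 2. All times share the untreated pair of libraries. The median log2 fold change of the 7 genes at 36 h was 0.07, and that of all genes 0.01.

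In O4AID, 0 of the 9 genes were at least 2-fold lower at 1.5 h, where 0.0629% of the genes with a mean of at least 10 reads were. At 6, 10 and 24 h *Nr0b1* and *Esrrb* were, 2 of 9 at each time, with 0.523%, 0.992% and 2.8% of all genes. At 24 h 0 were at least 2-fold higher, as 3.81% of genes were. The median log2 change of the 9 genes at 24 h was -0.12 and that of all genes -0.01.

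These changes altered the make-up of the receptor transcripts. *Esrrb* was the most abundant of the 49 receptor genes per length in all 15 libraries. In O4AID it made up 47.8% of their summed TPM untreated, 45.2% after 1.5 h, 33.4% after 6 h, 34.6% after 10 h and 13.8% after 24 h. *Nr0b1* went from 11% to 2.12% over the same time and from rank 2 of the 49 to a place outside the first 10. The summed TPM of the 49 genes was 661 at 0 h and 348 at 24 h, and the other 40 receptors made up 25.1% of the first sum and 55% of the second.

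In CreER the share of *Esrrb* was 21.1% and 20.4% at 0 h and 25.4% and 25.1% at 36 h, while that of *Rarg* was 20.8% and 20% at 0 h and 12.1% and 12% at 36 h. *Rarg* held rank 2 in both pairs. The summed TPM was 552 and 500 at 0 h and 414 and 405 at 36 h, and the other 40 made up 34.9% and 34.2% and then 38.5% and 39.4%. TPM carries no TMM scaling, so these sums also move with the unit. The means of *Esrrb* at 0 and 36 h were 109 and 103 TPM, but 268 and 280 CPM.

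**Figure D3:**
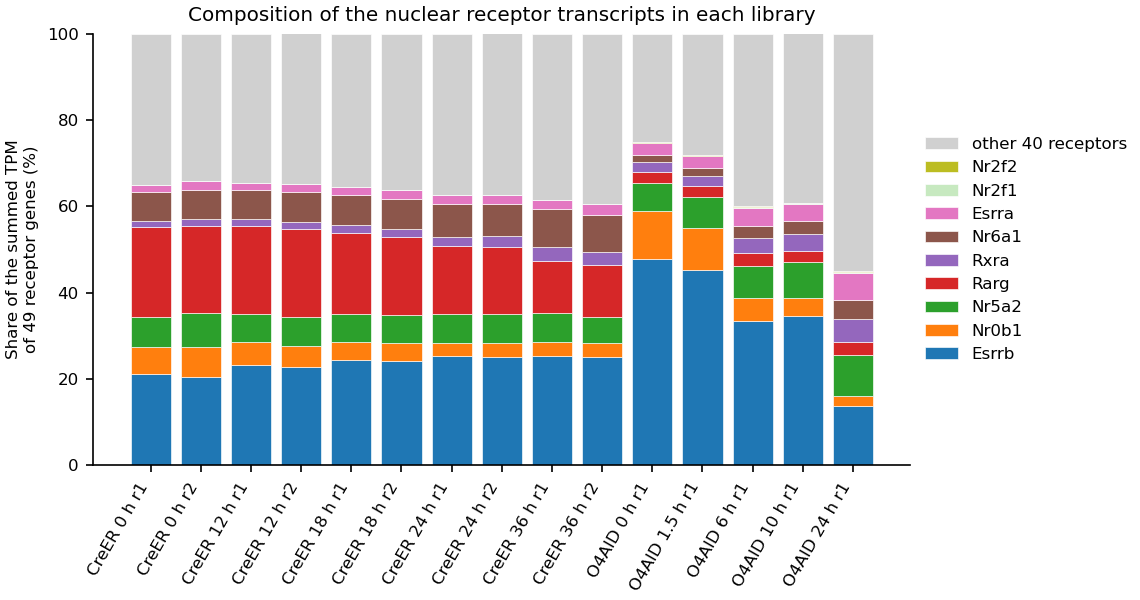
Share of the summed TPM of 49 nuclear receptor genes (vertical axis, percent) taken by each of the 9 genes and by the other 40 together, as stacked bars, in each of the 15 libraries (horizontal axis; r1 and r2 are replicates). The *Esrrb* share fell from 47.8% to 13.8% over 24 h in O4AID and was 20.4% to 21.1% in the untreated and 25.1% to 25.4% in the 36 h libraries of CreER.

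The other nuclear receptors gave calls in both directions. Of 40, 25 passed the filter in CreER, and at 36 h 7 were called higher and 4 lower, against 19.4% and 17.2% of all genes. The median log2 fold change of the 25 was -0.05. *Nr1d2* and *Nr1d1*, the circadian repressors REV-ERBβ and REV-ERBα, fell by 0.45 and 0.50 on the log2 scale (adjusted p = 2.16e-06 and 0.00148, edgeR), and *Ppard* and *Nr3c2*, the mineralocorticoid receptor, rose by 0.36 and 0.40 (adjusted p = 0.0011 and 0.0348). In O4AID at 24 h *Nr1d2* and *Nr3c2* had log2 changes of the opposite sign, 0.21 (0.10 to 0.32) and -0.35 (-0.60 to -0.10). That of *Ppard*, -0.11 (-0.23 to 0.01), lay within counting error, and that of *Nr1d1* was -0.64 (-0.84 to -0.43). In that line, 26 of the 40 had enough reads at 24 h. *Hnf4a*, a receptor of endoderm and liver, was the one at least 2-fold higher, from 0.854 to 4.92 CPM (log2 change 1.67, 1.41 to 1.92), 0 were 2-fold lower, and the median was 0.11. Of all genes, 3.81% were at least 2-fold higher and 2.8% lower. In CreER *Hnf4a* had a log2 fold change of 0.61 after 36 h (adjusted p = 0.203, SE 0.36).

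Coregulators, which nuclear receptors recruit to activate or repress, gave 15 testable genes of 16. At 36 h in CreER 4 were called higher and 5 lower, against 19.4% and 17.2% of all genes, with a median of -0.01. *Ncoa2*, a p160 coactivator, rose by 0.42 (adjusted p = 3.38e-07), while its relative *Ncoa1* fell by 0.29 (adjusted p = 0.0102), the corepressor *Ncor1* by 0.31 (adjusted p = 3.85e-06) and the arginine methyltransferase *Carm1* by 0.28 (adjusted p = 0.000127). In O4AID 0 were 2-fold lower or higher at 24 h, against 2.8% and 3.81% of all genes, and the median there was 0.01. *Ncor1* stood at 550 CPM at 0 h and 339 CPM at 24 h in O4AID, a log2 change of -0.69 (-0.72 to -0.67).

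Genes of retinoic acid supply and response gave 13 testable genes of 15. Of these, 6 were called higher and 1 lower at 36 h in CreER, against 19.4% and 17.2% of all genes, with a median of 0.48. *Cyp26a1*, which degrades retinoic acid and is a target of its receptors, rose by 1.26 on the log2 scale (adjusted p = 4.24e-05, edgeR), *Crabp2*, which carries retinoic acid to the nucleus, by 0.94 (adjusted p = 1.26e-08) and *Rdh10*, a retinol dehydrogenase, by 0.48 (adjusted p = 0.000123). In O4AID at 24 h *Stra6*, which takes retinol into cells, changed by 1.17 (0.89 to 1.43) and *Stra8*, a retinoic acid responsive gene of germ cells, by 2.06 (2.01 to 2.11), from 72.6 to 306 CPM. Of this list 3 were at least 2-fold higher and 0 lower there, against 3.81% and 2.8% of all genes. Its median was 0.16, and *Crabp2* had a change of -0.46 (-0.64 to -0.28).

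**Figure D4:**
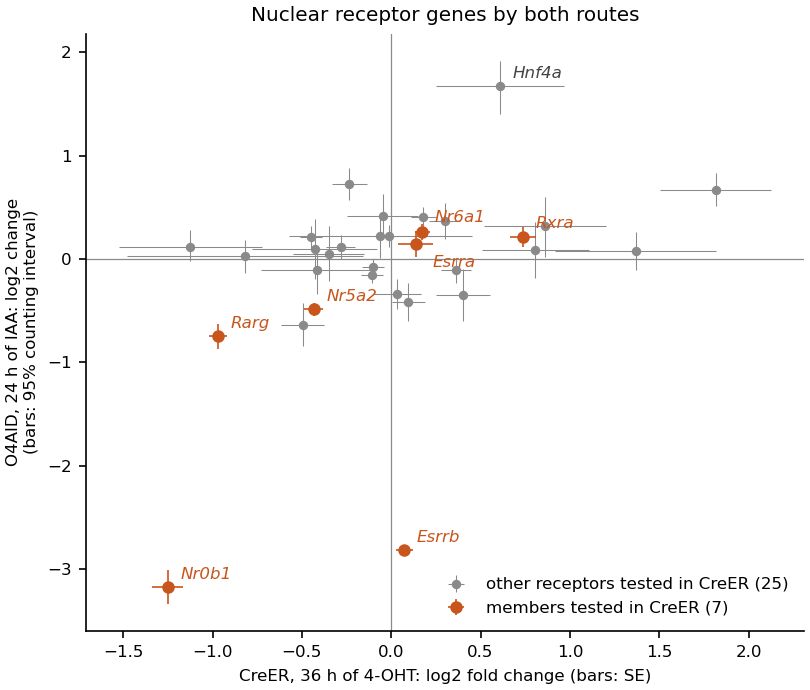
Log2 fold change after 36 h of 4-OHT in CreER (horizontal axis, bars SE) against log2 change after 24 h of IAA in O4AID (vertical axis, bars 95% counting interval) for the 7 members and 25 other nuclear receptors tested in CreER. *Nr0b1* lies low on both axes, *Esrrb* low on the O4AID axis alone, and *Hnf4a* highest on the O4AID axis.

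The genes whose course was most like that of each member were ranked by Pearson correlation of log2(CPM + 1) over the 15 libraries, with the mean of each line removed, among 9761 genes with a mean of at least 5 CPM in each line. These are descriptions over libraries that share 2 time courses. *Nr0b1* was followed most closely by *Agfg1* (r = 0.985), *Tigar* (0.980) and *Umps* (0.980), and *Rarg* by *Gpd2* (0.986), *Aldh2* (0.976) and *Klf5* (0.969), a pluripotency factor of the Krüppel family. *Rxra* was followed by *Nuak1* (0.978), *Snx21* (0.974) and *Eps8l2* (0.974), and *Nr5a2* by *Eps8* (0.970) and *Dcp2* (0.961). In all 11 of these the correlation was at least 0.937 within the 10 CreER libraries, and within the 5 O4AID libraries it was at least 0.914 apart from *Snx21* (0.778).

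The 3 genes nearest to *Esrrb*, *Pcnt* (r = 0.975), *Dlgap3* (0.971) and *Cox6c* (0.967), reached 0.988, 0.993 and 0.978 over the 5 O4AID libraries but 0.321, 0.570 and 0.269 over the 10 CreER libraries. *Dlgap3* had a log2 change of -1.82 in O4AID at 24 h and of 0.16 in CreER at 36 h. For *Nr6a1* the nearest were *Dym*, *Zfyve1* and *Ube2r2* (0.959, 0.959 and 0.952), and for *Esrra* and *Nr2f2* the highest values were 0.824 with *Bbc3* and 0.793 with *Irf2bp2*.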

How the data were processed

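Directional paired-end libraries were made by the authors from RNA depleted of rRNA. They trimmed reads with Trim Galore 0.1.4, aligned these to GRCm38/mm10 with TopHat2 2.1.0 and counted them per gene with featureCounts 1.5.1, as their processing notes and methods give it; strand and multimapping settings are not given in the sources used here. The deposited files hold raw counts per gene, 1 file for each of the 15 libraries. A deposited table of TMM-scaled values, with 15 columns, was not used. The 92 spike-in entries held 0 reads and were left out.

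CreER counts were fitted with edgeR 4.0.16 (R 4.3.3; quasi-likelihood test, TMM, filterByExpr, robust dispersion) over all 10 CreER libraries, with Benjamini-Hochberg adjustment over all 18969 genes tested and calls at an adjusted p under 0.05. Standard errors are the log2 fold change divided by the root of F. The fit was also run on simulated counts with the same dispersion for every gene and changes of at least 2-fold. Smaller changes were not covered by it. O4AID times have 1 library each, so log2(CPM + 1) changes are given with no p-value and with a 95% counting interval, in which the Wilson bounds (SciPy 1.17.1) of both libraries were combined. Shares of all genes past 2-fold were taken over genes with a mean of at least 10 counts in the libraries compared, a minimum set after the data were seen. Reads carry no molecular identifiers, so intervals and floors cover counting error only. The chi-square per degree of freedom between CreER replicates was 3.27 to 7.76, so they were treated as separate libraries.

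Members, lists and naming rule were chosen with earlier results of these data known. The genes named beside *Pou5f1* and the members were, for each list, up to 4 called at 36 h in CreER with a mean of at least 50 counts and the largest change, up to 4 in O4AID at least 2-fold changed at 24 h with that mean, and the 3 genes most like each member with a mean of at least 1 CPM. Of the genes this rule selects, 2 are not reported here. *Nanog*, *Krt7*, *Elf5*, *Sox7*, *Gata6*, *Pdgfra*, *Nes*, *Pax6*, *Sox1*, *Rara*, *Rarb*, *Rxrb* and *Rxrg* were named after their values were seen. Alternatives were other scalings, filters, pseudocounts, a replicate block, the 4 libraries compared, DESeq2 1.42.0 and leaving out each CreER library.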

Additional observations from a re-analysis of the deposited data

Results flagged for a closer look

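*Esrrb* at 24 h was the one member for which every CreER library moved one way and the O4AID library the other. Both CreER libraries lay above both untreated ones, with a mean change of 0.17 on the log2(CPM + 1) scale, and the O4AID library lay below its untreated one, with a change of -2.82. The difference, O4AID minus CreER, was -2.99 and was not tested, since O4AID has 1 library at each time. The shared hour is not the same time without OCT4 in both lines. Groups of 2 libraries and of 1 were too small for a search for outlying samples.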

How the results depend on the processing

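Of 595 CreER values of single members under the alternatives, 559 kept their sign and side of the threshold, 20 lost a call, 8 gained one and 8 changed sign. The sign changes were all in values not called: under total-count scaling *Nr6a1* at 12 h (-0.004), *Esrrb* at 36 h (-0.014) and *Esrra* from 24 to 36 h (-0.061), and with 1 library left out *Rarg* at 12 h (-0.042 to 0.125), *Esrrb* at 36 h (-0.006 to 0.152), *Esrra* from 24 to 36 h (-0.058 to 0.161) and *Nr0b1* from 24 to 36 h (-0.134 to 0.049). The 12 h count of called members, 0, was 2 with no filter on low counts (*Esrrb* and *Nr0b1*) and 1 with a replicate block (*Esrrb*). With each library left out in turn it was 0 to 1, the 18 h count was 2 to 4, the 24 h count 4 to 5, the 36 h count 5 to 6 and the count from 24 to 36 h 2 to 4. *Nr0b1* at 18, 24 and 36 h kept its call in every alternative run. The replicate numbers did not pair the libraries (correlations of deviations between times -0.021 to 0.050), and the block left 4, 5 and 5 members called at 18, 24 and 36 h.

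Total-count scaling shifted the median gene by -0.10 on the log2 scale from 24 to 36 h, and turned 1542 higher and 1243 lower genes into 682 and 3205. At 12 h it turned 49 and 26 into 31 and 53, and at 24 h 2084 and 2005 into 2277 and 1437. In O4AID the count of members at least 2-fold lower was the same under every scaling and pseudocount tried, and 17 of 144 values left their counting interval, *Nr0b1* at 24 h ranging from -2.53 (CPM + 5) to -3.39 (CPM + 0.1). Depth limits *Nr2f1* and *Nr2f2*, which could not be tested in CreER.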
